A study of Mus musculus with 20 samples.

Results

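The 10 transcription factor genes studied here establish or maintain the identity of sensory neurons, and they were followed in trigeminal ganglia (TG) and nucleus accumbens (NAc) of mice given morphine or vehicle. They were chosen by name, as Pou4f1, Pou4f2, Pou4f3, Isl1, Isl2, Tlx2, Tlx3, Runx1, Runx3 and Prdm12, and all 10 were found among the 32941 named genes of the deposited transcript table. Male C57BL/6J mice aged 9 to 12 weeks were used, 10 in all, and each gave 1 RNA-seq library per tissue 24 hours after the last injection, or 20 libraries. The 4 groups of 5 libraries were TG of vehicle mice, TG of morphine mice, NAc of vehicle mice and NAc of morphine mice. The labels give no genotype beyond the strain. The morphine mice are labelled OIH, which commonly stands for opioid-induced hyperalgesia. No dose or number of injections is given in the sources used here.

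The TG contains sensory neurons that supply the face and the meninges together with satellite glia, Schwann cells, vessels and immune cells, and the NAc is the ventral part of the striatum. POU4 homeodomain factors and LIM homeodomain factors of the ISL family are switched on as sensory neurons leave the cell cycle and end the programme of their precursors. PRDM12 is needed for nociceptors, the neurons that detect damaging stimuli, to form. RUNX1 and RUNX3 then divide the neurons, RUNX1 acting in nociceptors and RUNX3 in neurons that sense muscle and joint position, and the TLX homeobox factors act in subsets of sensory and autonomic neurons. Many of these genes stay on in the adult, where they hold the expression of channels, receptors and peptides of each neuron type. Each sample is a piece of tissue, so fewer cells of a type and less RNA per cell cannot be told apart.

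The estimated counts of a library added up to between 61285916 and 76110288 in TG, and in NAc the totals lay between 52402037 and 64357778. Levels are given as CPM, a gene's counts relative to the library total after adjustment of that total by TMM factors over all 20 libraries, and errors are the SD over 5 libraries. The tissues carried the markers of their labels, since 8 of 8 pan sensory neuron markers passed the test as higher in TG of vehicle mice and 9 of 9 striatal projection neuron markers as higher in NAc. Over all features 32.9% were called higher and 34.5% lower in TG. In the fit of TG alone 8 of the 9 projection neuron markers passed the filter on low counts. The remaining marker could only be called as higher in NAc. Some libraries stood apart in marker levels, and the cause was not tested. The summed level of 8 pituitary markers ran from 19.7 to 1048 CPM in vehicle TG and from 47.1 to 1440 CPM in morphine TG. In NAc, vehicle library 2 had the lowest Drd1, the D1 dopamine receptor of projection neurons, at 119.8 CPM against 192 to 342 CPM in the other vehicle libraries. The sequencing lane of each library is not given in the sources used here.

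All 10 factors were expressed in the ganglia at levels that varied little between mice. In vehicle TG, Prdm12 had the highest mean at 209 ± 11.5 CPM, ahead of Pou4f1 at 178 ± 6.47 CPM and Isl2 at 161 ± 4.26 CPM. Runx3 had the lowest mean at 8.55 ± 0.592 CPM. The coefficient of variation among the 5 vehicle libraries ran from 2.1% for Isl1 to 8.0% for Tlx2. Levels of different genes can be compared only per length, so CPM was divided by the length of the longest transcript matched to GENCODE. This makes the order approximate. For Runx1 5861 bases were used, though its model with the most counts in vehicle TG is matched to 1985 bases. Predicted models, whose length is not known here, held 53.3% of the Isl2 counts and 64.5% of the Prdm12 counts in vehicle TG. On this scale of CPM per kilobase (kb), Isl2 at 87.1 ± 2.30 and Prdm12 at 84.7 ± 4.66 led in vehicle TG, with overlapping libraries. A middle group of Isl1 at 41.8 ± 0.858, Pou4f1 at 39.96 ± 1.46 and Tlx2 at 39.5 ± 3.17 CPM per kb followed, and neighbours in this group overlapped. Then came Tlx3 at 25.3 ± 1.58 and Runx1 at 11.1 ± 0.481 CPM per kb, which overlapped neither each other nor their neighbours. Overlap here covers the spread between libraries and not the choice of length. Pou4f3 at 4.70 ± 0.351 and Pou4f2 at 4.04 ± 0.203 CPM per kb overlapped, and Runx3 stood below them at 2.20 ± 0.152 CPM per kb.

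**Figure D1:**
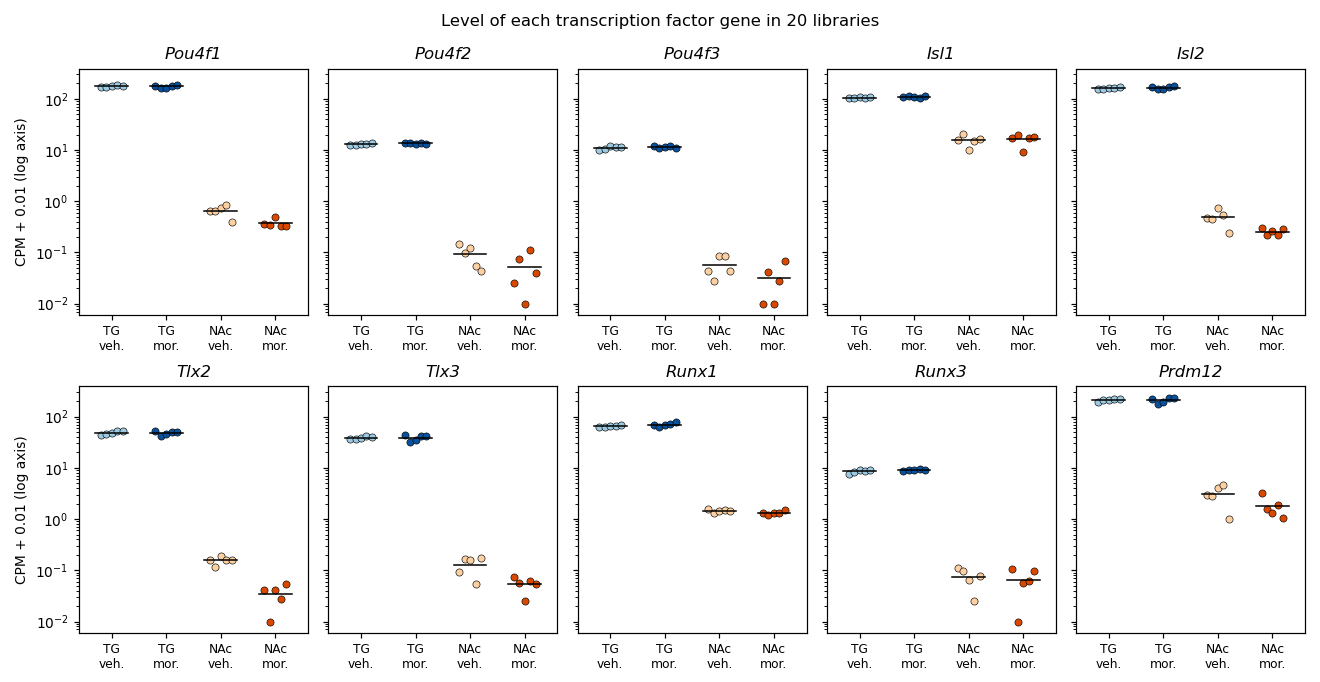
Level of each of the 10 genes in CPM plus 0.01 (log axis) in the 4 groups of 5 libraries (veh., vehicle; mor., morphine), with 1 point per library and a line at the mean. The ganglion libraries of both treatments overlap for every gene, and the accumbens libraries lie below them for every gene, with Isl1 closest to its ganglion level.

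All 10 genes were higher in TG than in NAc, in vehicle and in morphine mice alike. With edgeR's quasi-likelihood test and Benjamini-Hochberg adjustment over all features, 10 of 10 passed an adjusted p of 0.05 as higher in TG of vehicle mice, where 32.9% of all 32998 features tested did, and 10 of 10 in morphine mice, where 33.4% did. Pou4f2, Pou4f3, Tlx2, Tlx3 and Runx3 were too low in NAc for the filter on low counts and entered this fit through TG. For them a call could only be as higher, so their part of the count is not a finding. The median log2 difference of the 10 genes in vehicle mice was 7.56, beside -0.056 over all features. It includes those 5 genes and is a description only. The 5 genes that passed the filter in the NAc fit as well stood at 2.77 (Isl1), 5.49 (Runx1), 6.09 (Prdm12), 8.11 (Pou4f1) and 8.41 (Isl2). The smallest difference was that of Isl1, at 2.77 ± 0.17 (SE) on the log2 scale with an adjusted p of 5.22e-11. Runx1 followed at 5.49 ± 0.07 and Prdm12 at 6.09 ± 0.32, and the other 7 lay between 7.02 for Runx3 and 8.41 for Isl2. These differences kept their direction and passed the threshold under each alternative that tested them.

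In the ganglia, morphine was followed by no called change in any of the 10 genes. In TG, 0 of 10 passed the adjusted threshold, where 53 of 29394 features, or 0.18%, did. The log2 fold changes of morphine over vehicle lay between -0.03 for Pou4f1 and 0.11 for Runx1, with a median of 0.03 beside -0.002 over all features. The largest distance from 0 within any 95% interval was 0.22 on the log2 scale, at the upper end for Runx1. At this depth a change of that size or larger lay outside all 10 intervals. The 2 groups of libraries overlapped for every gene, where the groups did not overlap for 2.44% of features with a mean of at least 0.1 CPM.

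Runx1 and Isl1 had the smallest unadjusted p of the 10 in TG. Runx1 measured 61.9, 62.9, 65.0, 66.8 and 68.8 CPM in the vehicle ganglia and 69.1, 62.4, 69.5, 72.4 and 77.9 CPM in the morphine ganglia. In 4 of 5 morphine libraries it lay above all vehicle libraries, and morphine library 2 lay among the vehicle ones. Its log2 fold change was 0.11 ± 0.05 (SE), with an edgeR p of 0.0644 and an adjusted p of 0.538. Isl1 measured 103.5, 104.0, 107.9, 103.7 and 107.3 CPM in vehicle ganglia and 109.3, 110.8, 107.6, 105.8 and 113.9 CPM in morphine ganglia. In 3 of 5 morphine libraries it lay above all vehicle ones, with a log2 fold change of 0.05 ± 0.02 (SE), an edgeR p of 0.0421 and an adjusted p of 0.477.

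Prdm12, the zinc finger factor of nociceptor development, measured 190.1, 207, 214.5, 217 and 217 CPM in vehicle ganglia. In morphine ganglia it measured 223, 175, 192, 232 and 235 CPM, so 3 morphine libraries lay above all vehicle ones and 1 below. Its SD was 26.5 CPM in morphine ganglia and 11.5 CPM in vehicle ganglia, and the log2 fold change was 0.01 ± 0.08 (SE) with an adjusted p of 0.98. Morphine libraries 2 and 3, the lowest for Prdm12, were also the lowest of their group for Pou4f1, Isl2, Tlx2 and Tlx3, though not for the other members. They were the lowest of the group for the summed level of 7 sensory neuron genes as well (Avil, Prph, Scn10a, Scn11a, Mrgprd, Trpv1 and P2rx3), at 2994 and 3175 CPM against 3296 to 3476 CPM in the other morphine libraries. The part of these libraries' neuron content in the spread of Prdm12 was not tested.

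**Figure D2:**
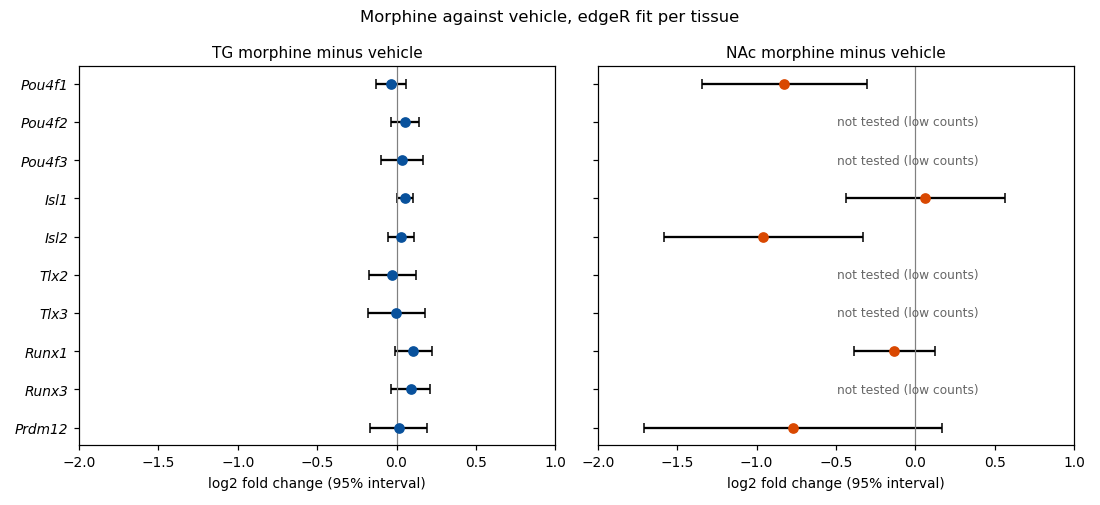
Log2 fold change of morphine over vehicle with its 95% interval for the 10 genes in TG and in NAc, from an edgeR fit within each tissue. All TG estimates lie within 0.11 of 0, the NAc estimates of Pou4f1, Isl2 and Prdm12 lie near -0.8 to -1, and 5 genes had too few counts in NAc to be tested.

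The related genes of each pathway were followed in the same fits. Of 16 other transcription factors of sensory neurons, 16 were tested in TG and 0 passed. Of 12 early neurogenesis factors, 10 were tested and 0 passed, and of 13 binding partners, 13 were tested and 0 passed. Of 18 sensory neuron genes that the literature places under these factors, 18 were tested and 0 passed. The smallest p among these lists belonged to Ntrk3, the receptor of neurotrophin 3 and a marker of proprioceptors and touch neurons, with a log2 fold change of 0.33 ± 0.07 (SE) and an adjusted p of 0.154. P2rx3, the ATP-gated channel of non-peptidergic nociceptors, had a log2 fold change of -0.19 ± 0.04 (SE) with an adjusted p of 0.166. The median log2 fold change of the list under the factors was -0.042 beside -0.002 over all features.

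Between the tissues of vehicle mice the same lists separated in part. Of the 16 other factors, 11 were called higher and 1 lower in TG, where 32.9% of all features were called higher and 34.5% lower. Prrxl1, a homeobox factor of nociceptors also called Drgx, measured 85.5 ± 4.86 CPM in TG and 0.476 ± 0.103 CPM in NAc, a log2 difference of 7.48 ± 0.13 (SE). Shox2, a factor of touch neurons, measured 27.4 ± 2.15 CPM in TG and 0.149 ± 0.0316 CPM in NAc. Of the 12 early factors 10 were tested, and of these 5 were called higher and 3 lower, beside the same shares over all features. Sox11, a factor of young neurons, was among the lower ones, with a log2 difference of -1.95 ± 0.14 (SE). Of the 18 genes under the factors 15 were called higher and 3 lower, the 3 being Ntrk2, Ntrk3 and Tac1, which the brain also expresses. In the fit of NAc alone, 15 of these 18 genes passed the filter on low counts. So did 14 of the 16 other factors and 9 of the 12 early ones. The rest of the tested genes entered the fit over both tissues through TG and could only be called as higher. Their part of these counts is not a finding.

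Among the 13 binding partners, 5 were called higher and 8 lower in TG of vehicle mice. Over all features 32.9% were called higher and 34.5% lower. Cbfb, the subunit that RUNX proteins need to bind DNA firmly, measured 279 ± 4.30 CPM in TG and 21.3 ± 4.85 CPM in NAc, a log2 difference of 3.71 ± 0.11 (SE) with an edgeR adjusted p of 1.33e-15. Ssbp2, which stabilises complexes of LIM homeodomain factors with LDB1, was lower in TG, at 33.0 ± 1.03 CPM against 75.3 ± 2.52 CPM. In NAc, Ssbp2 lay higher in all 5 morphine libraries than in any vehicle library, at 84.8 ± 2.69 against 75.3 ± 2.52 CPM, where the groups of 1.64% of features did not overlap. Its log2 fold change of 0.17 ± 0.04 (SE) was not called, with an edgeR adjusted p of 0.345.

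In NAc the levels were set beside those of other sensory neuron genes. The 7 sensory neuron genes named above, none of them a member, summed to 14.2, 14.7, 16.1, 15.7 and 7.88 CPM in the vehicle libraries. In the morphine libraries they summed to 9.63, 8.05, 8.18, 6.16 and 6.63 CPM. Vehicle library 5 lay within the morphine range and the other 4 vehicle libraries lay above it. As a share of the mean TG level this was 0.411 ± 0.1004% in vehicle and 0.231 ± 0.0412% in morphine NAc.

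Pou4f1 and Isl2 had mean accumbens shares below that sum. The NAc level of Pou4f1 was 0.364 ± 0.0972% of its TG level in vehicle and 0.205 ± 0.0394% in morphine mice. Per library this was 0.889 ± 0.0866 times the share of the 7 sensory neuron genes in vehicle and 0.901 ± 0.173 times in morphine mice. Isl2 stood at 0.291 ± 0.106% and 0.149 ± 0.0234% of its TG level. Tlx3 stood at 0.308 ± 0.135% and 0.114 ± 0.0454%, from 1 to 10 counts per library, too few to place it against that sum.

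Isl1, Runx1 and Prdm12 had mean shares above that of the summed 7 sensory neuron genes. Single genes of the 7 also differed from their sum, and P2rx3 stood at 1.30 ± 0.227% in vehicle and 1.03 ± 0.326% in morphine NAc. The Prdm12 libraries overlapped those of P2rx3 in both treatments, so Prdm12 was not set apart from every single sensory gene. Isl1 in NAc stood at 14.4 ± 3.41% of its TG level in vehicle and 15.1 ± 3.77% in morphine mice, or 38.3 ± 17.3 and 67.4 ± 22.01 times the sensory share. Runx1 stood at 2.14 ± 0.162% and 1.96 ± 0.152%, and Prdm12 at 1.46 ± 0.667% and 0.854 ± 0.403%. RUNX1 is also a factor of blood cells and microglia, which both tissues hold. The summed level of 12 microglia and macrophage markers in NAc was 256 ± 33.5 CPM in vehicle and 245 ± 10.3 CPM in morphine mice, and their part in the Runx1 level was not tested. Pou4f2, Pou4f3 and Runx3 had 0 to 8 counts in each NAc library and Tlx2 and Tlx3 0 to 10, which is too few to place these 5 genes against the sensory share.

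**Figure D3:**
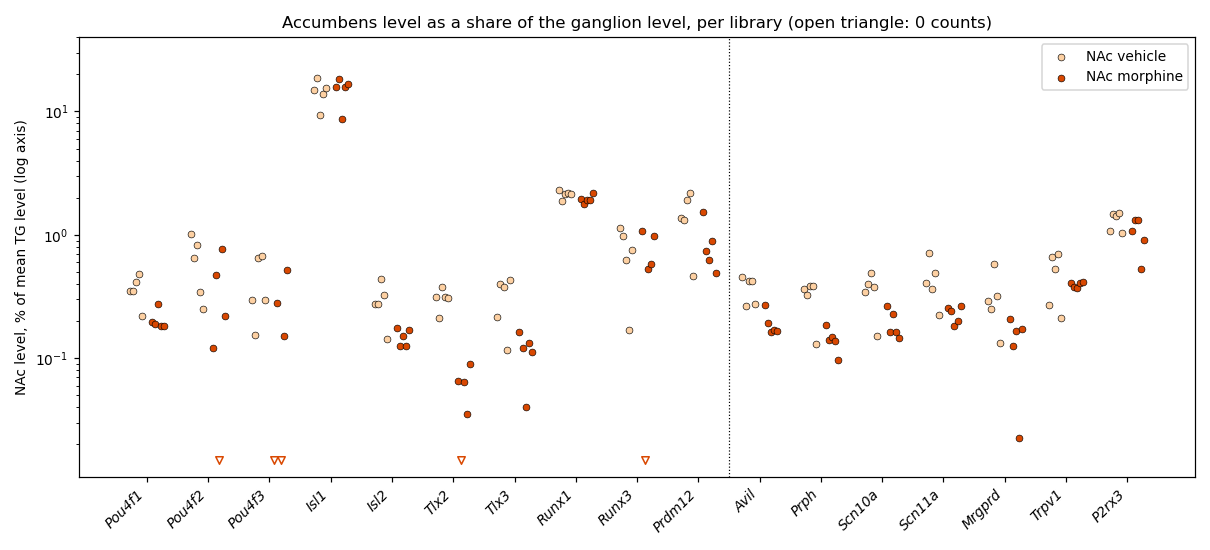
NAc level of each gene as a percentage of its mean level over the 10 TG libraries (log axis), with 1 point per library, for the 10 factors on the left and 7 sensory neuron genes on the right of the dotted line. Open triangles mark libraries with 0 counts. Isl1 lies near 15% in both treatments, and Pou4f1 and Isl2 lie in the range of Avil, Prph and Scn10a. Points of Tlx2 and Tlx3 reach below that range in morphine libraries but rest on too few counts to be placed against it.

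In the fit of the 10 NAc libraries no factor that could be tested passed after morphine. Of the 10 genes 5 passed the filter on low counts and 0 of these were called, where 0% of 29910 features were called by edgeR, 1709 features had an unadjusted p under 0.05, and DESeq2 called 245. The other 5, Pou4f2, Pou4f3, Tlx2, Tlx3 and Runx3, were not tested in this fit.

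Pou4f1 measured 0.621, 0.621, 0.733, 0.844 and 0.383 CPM in vehicle NAc, from 23 to 56 counts. In morphine NAc it measured 0.348, 0.330, 0.483, 0.323 and 0.319 CPM, from 19 to 31 counts. In 4 of 5 morphine libraries the value lay below all vehicle ones, and vehicle library 5 lay within the morphine range, as it did for the 7 sensory neuron genes. The log2 fold change was -0.83 ± 0.23 (SE), with an edgeR p of 0.00528 and an adjusted p of 0.564. A fit that was added later took the summed level of the 7 sensory neuron genes as a covariate. In it the value was -0.14 ± 0.31 (SE) with an adjusted p of 0.955. In NAc this covariate itself nearly separated the treatments, with vehicle library 5 as the exception. Fits that use it therefore cannot divide an effect of morphine from the level of those genes.

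Isl2, which acts beside ISL1 in sensory neurons, also had its lowest vehicle value in library 5. It measured 0.453, 0.449, 0.714, 0.527 and 0.233 CPM in vehicle and 0.285, 0.204, 0.249, 0.204 and 0.275 CPM in morphine NAc, from 12 to 39 counts. The log2 fold change was -0.96 ± 0.28 (SE) with an adjusted p of 0.612, and -0.04 ± 0.36 (SE) with the covariate. Prdm12 measured 2.89, 2.78, 4.07, 4.63 and 0.983 CPM in vehicle and 3.21, 1.56, 1.31, 1.87 and 1.04 CPM in morphine NAc. Its groups overlapped over most of their range, and the log2 fold change was -0.77 ± 0.42 (SE) with an adjusted p of 0.937, which turned to 0.79 ± 0.44 (SE) with the covariate. Several marker lists leaned in NAc too, with 0 markers called in each, beside a median of -0.007 over all features. Of 8 pan sensory neuron markers 7 were negative, with a median of -0.609. So were 5 of 5 habenula and midbrain markers (median -0.176) and 6 of 7 cholinergic interneuron markers (-0.151). The 5 red blood cell markers tested were all positive (0.374). Microglia and macrophage markers were mixed, with 5 positive and 7 negative (-0.041). Of 8 markers of satellite glia and Schwann cells 7 had a negative log2 fold change, with a median of -0.474. Of 7 endothelial and mural markers 7 were negative, with a median of -0.164, and of 9 projection neuron markers 9 were positive, with a median of 0.123. Their part in the values of these genes was not tested.

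Tlx2, on chr6:83068325-83070225 of GRCm38, was the 1 factor whose NAc groups did not overlap. It had 9, 6, 10, 10 and 9 counts in the vehicle libraries and 2, 0, 2, 1 and 3 counts in the morphine libraries. All 5 morphine libraries lay below all 5 vehicle ones, where this held for 1.01% of features with a mean of at least 0.1 CPM in NAc, a mean that Tlx2 itself did not reach over the 10 libraries. Among the listed genes it also held for Sncg, a pan sensory neuron marker, at 2.09 ± 0.334 against 5.07 ± 2.04 CPM. The glial markers Pmp22, Gjb1 and Sox10 and the endothelial markers Cdh5 and Cldn5 did the same, while Ssbp2 went the other way. For Tlx2 the summed counts of 8 against 44 gave a ratio of 0.170 with an exact 95% interval from 0.0692 to 0.366, which covers counting error only. In CPM the means were 0.148 ± 0.0284 and 0.0247 ± 0.0167, and 3 counts correspond to 0.0496 CPM. As a share of its TG level this was 0.305 ± 0.0587% in vehicle and 0.0509 ± 0.0344% in morphine NAc.

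In TG the same gene was level. Tlx2 measured 44.8, 44.98, 48.97, 52.8 and 52.6 CPM in vehicle ganglia and 52.7, 42.7, 45.2, 49.5 and 50.2 CPM in morphine ganglia, groups that overlapped over nearly all of their range. The log2 fold change there was -0.03 ± 0.07 (SE) with an edgeR adjusted p of 0.939.

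Tlx2 was the 1 factor called when the morphine effect was compared between the tissues, in a fit whose filter on low counts it passed through TG alone. Of the 10 factors 1 passed in this test of the difference, where 0.0394% of 32998 features did, or 13 features. The effect in TG minus that in NAc was 2.44 ± 0.33 (SE) on the log2 scale, with an edgeR adjusted p of 0.00896. The call rests on the 44 and 8 counts of Tlx2 in vehicle and morphine NAc. It was lost when the mouse was kept as a block, with an adjusted p of 0.198, under voom, with 0.426, and with the sensory neuron genes as a covariate, with 0.159. The range over all alternatives was 0.00244 to 0.426. In those 3 fits the difference itself was 2.44 ± 0.35, 2.69 ± 0.99 and 2.52 ± 0.46 (SE).

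The other 9 factors were not called in this comparison. Pou4f1 differed by 0.80 ± 0.19 (SE) with an adjusted p of 0.193, Isl2 by 0.98 ± 0.22 with 0.172, and Tlx3 by 1.38 ± 0.36 with 0.299. Without NAc vehicle library 5, the library low in sensory neuron genes, Pou4f1 passed at 0.94 with an adjusted p of 0.00852 and Isl2 at 1.15 with 0.00335. With the sensory neuron genes as a covariate, which in NAc nearly followed the treatment, Pou4f1 stood at 0.16 ± 0.19 (SE) and Isl2 at 0.11 ± 0.23 (SE). A fit of NAc on all 20 libraries shares 1 estimate of the spread with TG, and the 5 factors too low for the NAc fit enter it only through their TG counts. It called Pou4f1 at -0.83 ± 0.17 (SE, adjusted p of 0.0435) and Tlx2 at -2.46 ± 0.31 (SE, adjusted p of 0.00274), where it called 0.221% of features.

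The remaining low-count factors were described by their counts. Tlx3 had 35 counts over the vehicle and 14 over the morphine libraries of NAc, a ratio of 0.375 with an exact 95% interval from 0.186 to 0.714 for counting error. Pou4f2 had 24 and 13 counts and Pou4f3 had 14 and 7 counts, and the interval of each ratio included 1. Runx3 had 19 and 18 counts, a ratio of 0.887 with an interval from 0.439 to 1.79. In every one of these genes the libraries of the 2 treatments overlapped.

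Isl1 was the factor with a substantial level in NAc, where ISL1 is known from striatal precursors and where it is kept in adult cholinergic interneurons. It measured 15.98, 20.1, 9.98, 14.8 and 16.5 CPM in vehicle NAc, from 545 to 1166 counts. In morphine NAc it measured 16.8, 19.8, 9.25, 17.1 and 17.97 CPM, from 594 to 1259 counts. The groups overlapped, and library 3 was the lowest in each. The log2 fold change was 0.06 ± 0.22 (SE), with a 95% interval from -0.44 to 0.56 and an adjusted p of 0.998.

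Of 5 genes of cholinergic interneurons, 3 had their lowest values in the same libraries as Isl1 and 2 did so in the vehicle group only. Slc5a7, the choline transporter, measured 28.5 CPM in vehicle library 3 and 33.0 CPM in morphine library 3, the 2 lowest of the 10 values, against 36.2 to 61.1 CPM in the others. Lhx8, a LIM factor that directs the cholinergic fate together with ISL1, measured 3.26 and 2.82 CPM in these libraries, also the 2 lowest. Gbx2, another factor of these interneurons, was lowest there too, at 0.403 and 0.358 CPM. Chat, the enzyme that makes acetylcholine, was lowest in vehicle library 3 at 9.60 CPM, but morphine library 3 stood at 13.97 CPM, above vehicle library 4 and morphine library 4. Slc18a3, the vesicular acetylcholine transporter, was lowest in vehicle library 3 at 2.82 CPM, and morphine library 3 at 4.69 CPM lay above morphine libraries 1 and 4. At the upper end the genes parted. Isl1, Lhx8 and Gbx2 were highest in vehicle library 2, the library with the lowest Drd1, whereas Chat, Slc5a7 and Slc18a3 were highest in vehicle library 5, the library with the highest Drd1. With the summed level of Chat, Slc5a7, Slc18a3, Lhx8 and Gbx2 as a covariate, also added later, the log2 fold change of Isl1 was 0.08 with an SE of 0.14, beside 0.22 without it.

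**Figure D4:**
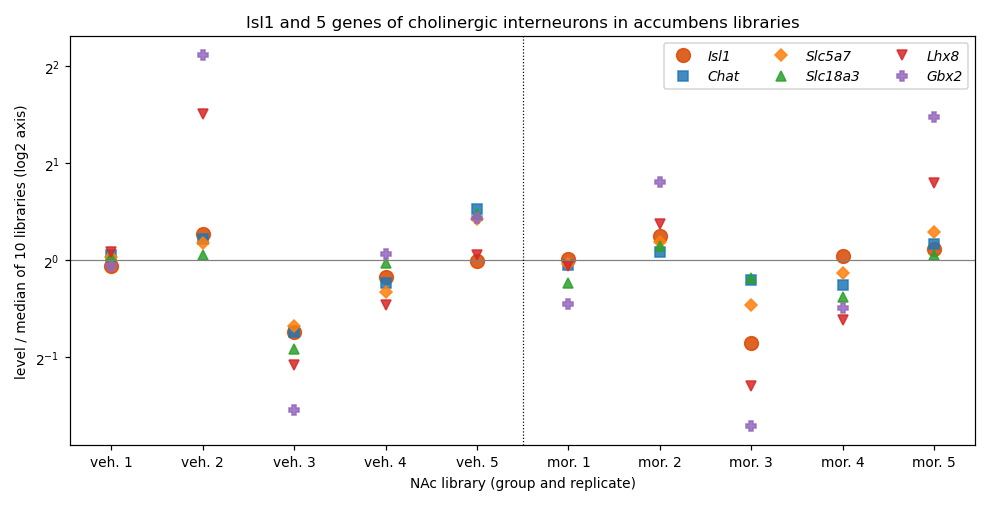
Level of Isl1 and of 5 genes of cholinergic interneurons in each NAc library, divided by the gene's median over the 10 libraries (log2 axis; veh., vehicle; mor., morphine). Isl1, Slc5a7, Lhx8 and Gbx2 have their lowest values in library 3 of each treatment, and Lhx8 and Gbx2 are highest in vehicle library 2.

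The paralogues Isl1 and Isl2 stood in opposite orders in the 2 tissues, so the 250 bases before their starts are shown, from RefSeq in GRCm38.p6 and read 5′ to 3′ on the strand of the gene. Isl1 lies on the minus strand with its window at chr13:116309689-116309938, and Isl2 on the plus strand at chr9:55540899-55541148. In vehicle NAc their levels were 6.15 ± 1.45 and 0.256 ± 0.0933 CPM per kb. In vehicle TG Isl2 was the higher by the lengths used here, at 87.1 ± 2.30 against 41.8 ± 0.858 CPM per kb.
Isl1: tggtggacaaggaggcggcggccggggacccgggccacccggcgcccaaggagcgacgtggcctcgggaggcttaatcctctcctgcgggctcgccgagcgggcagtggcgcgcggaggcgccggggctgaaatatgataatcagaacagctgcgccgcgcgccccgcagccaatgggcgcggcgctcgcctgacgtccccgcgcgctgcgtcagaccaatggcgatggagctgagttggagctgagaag
Isl2: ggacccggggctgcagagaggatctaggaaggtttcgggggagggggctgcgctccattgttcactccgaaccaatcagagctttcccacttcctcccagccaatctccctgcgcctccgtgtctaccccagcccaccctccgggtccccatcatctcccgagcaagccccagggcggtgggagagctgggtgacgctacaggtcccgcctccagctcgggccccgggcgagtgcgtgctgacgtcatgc
Windows of 300 bases, that is these bases and the 50 that follow the start, were searched on both strands for the letters TAATTA, a core bound by many homeodomain proteins, and TATAAA, the TATA box. Neither window held either of them, and of all 32851 RefSeq windows of this length 5.29% held the first and 13.6% the second. The Isl1 window held 37 CpG dinucleotides and the Isl2 window 23, beside a median of 7 over all windows. No match says only that these letters are not in this window.

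Runx1 is read from a distal and a proximal start, and the deposited transcripts separate them in part. Of its 4 models 2 begin at the distal start and 2 begin further downstream. In TG the distal models held 30.7, 31.6, 27.9, 36.1 and 35.7% of the Runx1 counts in vehicle and 29.0, 36.1, 27.6, 35.2 and 31.4% in morphine mice. The groups overlapped throughout, with means of 32.4 ± 3.49% and 31.9 ± 3.72%, a difference of -0.52 percentage points and an adjusted p of 0.911 in an exact permutation test. In NAc the means were 49.9 ± 19.4% and 49.9 ± 15.3%, with a spread from 22.9 to 71.9% over totals of 74 to 103 counts per library. Paired within the 10 mice, TG was lower than NAc by a mean of 17.7 percentage points (difference of -17.7; exact paired permutation p of 0.00781, adjusted p of 0.0352 over 9 tests of transcript shares). The split of reads among overlapping models is estimated, and at these NAc totals the share of a single library is imprecise.

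Both RUNX genes have this arrangement, and the 4 windows of 250 bases before their starts are shown so that the starts can be compared. They come from RefSeq in GRCm38.p6 and are read 5′ to 3′ on the strand of the gene. Capitals mark the letters ACCACA or TGTGGT, the core of the RUNX binding motif read from either strand. The Runx1 windows lie on the minus strand at chr16:92826075-92826324 (distal) and chr16:92697330-92697579 (proximal), and the Runx3 windows on the plus strand at chr4:135120395-135120644 (distal) and chr4:135152295-135152544 (proximal).
Runx1 distal: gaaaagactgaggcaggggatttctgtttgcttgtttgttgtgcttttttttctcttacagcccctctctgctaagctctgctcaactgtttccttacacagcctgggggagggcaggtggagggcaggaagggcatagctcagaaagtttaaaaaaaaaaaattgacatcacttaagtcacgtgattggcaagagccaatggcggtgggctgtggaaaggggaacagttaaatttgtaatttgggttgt
Runx1 proximal: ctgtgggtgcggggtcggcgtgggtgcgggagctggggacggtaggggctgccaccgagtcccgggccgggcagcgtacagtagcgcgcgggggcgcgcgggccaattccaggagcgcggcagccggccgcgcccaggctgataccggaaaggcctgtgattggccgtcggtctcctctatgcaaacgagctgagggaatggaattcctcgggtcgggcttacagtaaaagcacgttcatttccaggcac
Runx3 distal: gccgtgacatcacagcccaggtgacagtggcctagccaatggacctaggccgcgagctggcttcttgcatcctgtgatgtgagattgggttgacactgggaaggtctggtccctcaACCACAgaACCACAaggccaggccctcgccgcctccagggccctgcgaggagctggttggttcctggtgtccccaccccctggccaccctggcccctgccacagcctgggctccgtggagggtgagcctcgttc
Runx3 proximal: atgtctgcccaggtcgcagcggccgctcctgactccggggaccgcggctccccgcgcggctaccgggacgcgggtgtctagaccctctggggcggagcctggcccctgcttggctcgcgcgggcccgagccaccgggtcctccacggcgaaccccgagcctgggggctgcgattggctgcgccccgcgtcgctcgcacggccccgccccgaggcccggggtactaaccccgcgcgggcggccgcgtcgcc
With the 50 bases after each start included, both distal windows held 2 matches and both proximal windows none. At least 1 match was present in 16.8% and 2 or more in 1.81% of the 32851 windows. In Runx3 the matches begin 134 and 126 bases before the start, and in Runx1 28 and 36 bases after it, beyond the bases printed above. The longest stretch that the distal windows share is 18 bases long and holds both matches.
Shared distal stretch: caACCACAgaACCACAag
The distal and proximal windows also differed in CpG content. The Runx1 distal window held 2 CpG dinucleotides and the proximal one 35, and in Runx3 these were 8 and 45. A match is a description of letters, and neither binding nor the use of a start was measured here.

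For other factors with several models, no test of treatment on the share of 1 model passed either. The predicted model of Prdm12 held 64.5 ± 2.08% of its counts in vehicle TG and 63.4 ± 0.65% in morphine TG. In NAc it held 53.9 ± 7.94% and 41.5 ± 12.5%, over totals of 59 to 307 counts, a difference of -12.4 percentage points with an exact permutation p of 0.0952 and an adjusted p of 0.286. Paired within the 10 mice, TG exceeded NAc by 16.2 percentage points (exact paired permutation p of 0.00195, adjusted p of 0.0176). The predicted model of Isl2 held 53.3 ± 1.70% and 53.6 ± 1.06% in TG, and 69.9 ± 8.22% and 57.6 ± 13.9% in NAc over totals of 12 to 39 counts, which were not tested. A non-coding model of Pou4f1 held 42.5 ± 3.74% and 39.7 ± 1.59%. The predicted model of Runx3 held 59.7 ± 4.23% in vehicle and 57.3 ± 16.2% in morphine TG, with a range from 40.4 to 75.3% in the latter. Of the 7 tests of treatment on these shares 0 had an adjusted p under 0.05, and the lowest was 0.286.

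**Figure D5:**
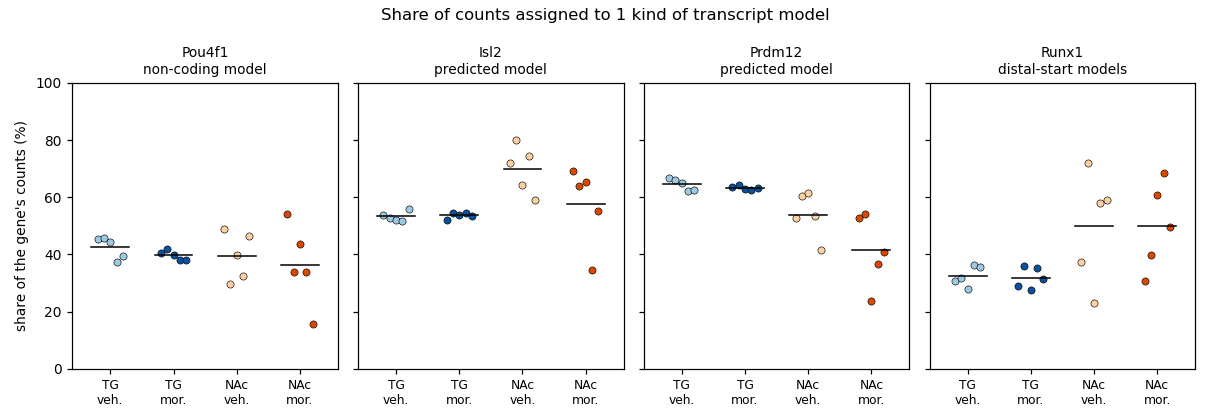
Share of the gene's estimated counts assigned to the non-coding model of Pou4f1, to the predicted models of Isl2 and Prdm12 and to the 2 distal-start models of Runx1, in percent, with 1 point per library and a line at the mean (veh., vehicle; mor., morphine). The TG libraries of both treatments overlap in all 4 panels, and the NAc libraries spread more widely.

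The genes whose levels most resembled each factor over the 10 libraries of a tissue were found by Pearson's r of log2 CPM, as a description over libraries that share their tissue and processing. In TG the closest gene to Isl2 was Stk32c (r of 0.975), to Prdm12 Rcan3 (0.972), to Runx3 Tns1 (0.97), to Tlx2 Nucb1 (0.968), to Pou4f2 Rhot2 (0.961) and to Pou4f1 Hcn3 (0.96). In NAc the closest gene to Isl1 was Robo1 (0.972). Across all 15051 genes compared in TG the median highest r was 0.942, and in NAc it was 0.955, so values of this size were usual in these libraries.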

How the data were processed

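RNA was measured in 20 libraries. Per the labels' protocols, strand-specific poly(A) libraries were made with an Illumina TruSeq kit. The authors deposited expected counts, that is estimates of reads per transcript, for 107185 RefSeq transcripts. Per the submitters' processing notes they used kallisto 0.43 and mouse build GRCm38. The labels conflict on whether 1 or both ends were read. Of the values 56.7% were not whole.

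Transcripts were matched to genes through RefSeq GRCm38.p6 (80.8% of transcripts, 90.0% of counts; 151 through GENCODE M21 only), summed, rounded and kept as 53518 features. Comparisons were fitted with edgeR 4.0.16 in R 4.3.3 (filterByExpr, TMM, robust glmQLFit; 2-sided, Benjamini-Hochberg over all features, threshold 0.05), within a tissue for treatment and over all 20 libraries for contrasts between tissues. SE was taken as the size of a log2 fold change over the square root of its F statistic. The code was tested on simulated data. Alternatives used DESeq2 1.42.0 and limma 3.58.1.

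The members, gene lists and tests were chosen with earlier results of these data known. All 10 members are named in each comparison. Of each other list, counts and up to 5 genes with the smallest p are named, and the members' 3 closest genes were sought. Other genes, and the 3 covariate fits, were chosen after values had been seen. The mouse codes of the labels pair TG with NAc libraries. The deviations of same-mouse libraries had correlations from -0.052 to 0.031. Library totals of at least 52402037 counts leave wide intervals for members with few NAc counts. Some genes of the lists are not reported here.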

Additional observations from a re-analysis of the deposited data

Results flagged for a closer look

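In NAc of morphine mice, library 3 had a Pou4f1 level of 0.483 CPM, and its gap to the next of the 5 libraries was 0.82 of the group's range. The same library had an Isl1 level of 9.25 CPM, the lowest of its group, with a gap of 0.718 of the range. The limit for 5 libraries is 0.71. Of 40 groups of values examined, chance would mark about 1 in 20.

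Tlx2 was flagged because the test of the morphine effect between the tissues called it, at 2.44 on the log2 scale (TG minus NAc). It passed the filter of that fit through TG alone, and the call rests on 44 vehicle and 8 morphine counts in NAc. The call was lost with the mouse as a block, under voom and with the sensory covariate, as given above.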

How the results depend on the processing

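The 10 members stayed called higher in TG than in NAc in both treatments under all alternatives run, and 0 members were called after morphine in TG under any. For the 5 members too low for the filter in NAc, a call between tissues could only be as higher, so their part is not a finding. Counts over all features moved more. In TG, where 53 features were called, DESeq2 called 709, voom 82, a filter of 1 CPM in 5 libraries 87, named genes alone 123, single transcripts 32 and the replicate number as a block 2, and leaving out 1 library gave 21 to 77. In NAc, where 0 were called, DESeq2 called 245, voom 4, the 1 CPM filter 1, named genes alone 3 and the fit on all 20 libraries 73, of which 2 were members. For the difference between tissues, where 13 features and 1 member were called, DESeq2 called 228 and 3 members, voom 0 and 0, library size alone 8, no filter 8 and the mouse as a replicate block 1 with 0 members. The sensory covariate gave 0 members, and leaving out 1 library gave 6 to 33 features and 1 to 3 members. Blocking by mouse, the pairing that comes from the labels, changed no other call of a member. In the treatment comparisons the samples share only a number, and their deviations correlated at -0.010 to 0.036 (TG) and 0.018 to 0.235 (NAc). Some log2 differences changed sign, most of them near 0. Tlx3 in TG was 0.002 in the fit on all 20 libraries. Isl1 between tissues was 0.0001 with DESeq2 size factors, 0.0007 with the mouse block and 0.187 with the covariate. With the covariate, NAc Isl1 was -0.131, and Prdm12 reversed at a large size, from -0.77 to 0.789 in NAc and from 0.79 to -0.683 between tissues. Leaving out 1 library gave ranges of -0.063 to 0.012 for Tlx2, -0.043 to 0.056 for Tlx3 and -0.028 to 0.071 for Prdm12 in TG, -0.059 to 0.210 for Isl1 in NAc, and -0.152 to 0.113 for Isl1 and -0.038 to 0.537 for Runx3 between tissues. The sensory covariate nearly followed the treatment in NAc, so fits with it cannot separate the treatment from it. The cause of these changes was not tested. Depth limits the 5 members with at most 10 counts in any NAc library, whose ratios are wide, and transcript shares in NAc.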
